A study of Mus musculus with 8 samples.

Results

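Immediate early genes are transcribed within minutes of a stimulus from factors already present in the cell, and 10 of them were followed here in the mouse heart: Fos, Fosb, Fosl2, Jun, Junb, Jund, Egr1, Atf3, Nr4a1 and Ier2. They were chosen by symbol, through the gene identifiers of the GRCm38 annotation. All 10 were found among the 55487 identifiers of the count table, and all 10 were among the 17636 genes with enough counts to be tested. Heart RNA came from WT mice and from mice with a global knockout of Set7 (Set7KO), a lysine methyltransferase encoded by Setd7, the knockouts being bred from heterozygous parents. The groups were WT after isoproterenol, WT after saline, Set7KO after isoproterenol and Set7KO after saline, with 2 libraries each. Isoproterenol, a beta-adrenergic agonist, was injected under the skin at 60 mg/kg for 14 days, and the saline groups received saline over the same time. Age, sex, strain background and the hours between the last injection and tissue collection are not given in the labels.

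Fos, Jun and Atf3 proteins belong to the bZIP family and bind DNA as dimers, the Fos and Jun pairs forming the factor AP-1. Egr1 is a zinc finger factor, Nr4a1 an orphan nuclear receptor and Ier2 a small nuclear protein, and the group is known to be induced through MAP kinase, SRF and CREB signalling. In the heart, acute beta-adrenergic stimulation and stretch are known to induce this programme for a short time, after which the transcripts decay quickly.

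The libraries held 27847069 to 51705705 counts. Setd7 stood at 3.80 to 5.70 CPM in the 4 Set7KO libraries, against 43 to 72.6 CPM in the 4 WT libraries, which fits the labels. CPM are counts per 1000000 of the TMM-scaled library size. Libraries also differed in how genes of high and low GC content compared. With genes ranked into 5 classes by GC content, this GC trend, the median log2 deviation of the richest class minus that of the poorest, was -1.01 and -0.72 in WT isoproterenol and 0.55 and 0.79 in WT saline. In Set7KO it was 0.17 and 0.64 after isoproterenol, and 0.37 (replicate 1) and -0.85 (replicate 2) after saline. Within WT the trend and the treatment cannot be told apart, so the differences of the 10 genes are also given with offsets fitted to the GC content and length of every gene. The clock gene Dbp stood at 219 to 469 CPM in the 4 isoproterenol libraries, against 46.8 to 58.3 CPM in 3 saline libraries and 378 CPM in WT saline replicate 1. Clock gene levels thus moved with the treatment in all but 1 library, and the part of collection time in any result was not tested. Whether the libraries stem from separate animals is not said in the labels, and p-values here cover only the spread among these libraries, which may be technical. In whole heart RNA, fewer cells of a type and less RNA per cell cannot be told apart.

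Per kilobase of exon, the Jun family led. Jund averaged 71.2 ± 32.3 CPM per kb over the 8 libraries (SD, n = 8), and Jun 25.9 ± 9.64 CPM per kb. Jund lay above Jun in 8 of 8 libraries, and Jun above the next gene in 8 of 8. Ier2 (14.7 ± 6.40 CPM per kb), Nr4a1 (13.1 ± 10.9) and Junb (11.3 ± 3.71) followed, and their order changed between libraries: Ier2 lay above Nr4a1 in 5 of 8 and Nr4a1 above Junb in 4 of 8. Atf3 (3.54 ± 2.24 CPM per kb) and Fosl2 (2.98 ± 0.984) were likewise not ordered, Atf3 being higher in 4 of 8 libraries. Fosl2 lay above Egr1 (2.24 ± 1.40 CPM per kb) in 7 of 8, and Egr1 above Fos (1.26 ± 1.65) in 7 of 8. Fosb came last in 8 of 8 libraries at 0.125 ± 0.137 CPM per kb. AP-1 transcripts in these hearts were thus mostly Jund and Jun, with Fosl2 the most abundant of the Fos genes on this scale.

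The promoters of 8 of the 10 genes, all but Egr1 and Ier2, were searched in the RefSeq promoter table for GRCm38.p6. The search covered the 250 bases before each RefSeq transcript start. The core of the cAMP response element, TGACG on either strand, lay in 5 of these 8 windows, those of Fos, Fosb, Junb, Atf3 and Nr4a1, against 17.8% of 32851 promoter windows of the same length. The 5 windows are shown because cAMP and CREB act downstream of beta-adrenergic receptors. They are read 5′ to 3′ on the strand of the gene, with capitals for TGACG, for its reverse complement CGTCA and, in Fos, for the TATA box TATAAA.
Fos: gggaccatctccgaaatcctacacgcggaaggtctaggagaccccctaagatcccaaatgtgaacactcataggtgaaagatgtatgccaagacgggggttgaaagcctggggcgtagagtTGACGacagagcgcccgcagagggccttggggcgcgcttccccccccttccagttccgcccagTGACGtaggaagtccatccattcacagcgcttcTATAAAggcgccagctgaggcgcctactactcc
Fosb: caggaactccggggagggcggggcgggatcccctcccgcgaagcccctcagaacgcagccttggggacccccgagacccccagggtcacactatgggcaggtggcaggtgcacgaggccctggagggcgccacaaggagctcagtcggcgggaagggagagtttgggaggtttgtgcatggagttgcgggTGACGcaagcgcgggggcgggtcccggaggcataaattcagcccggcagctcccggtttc
Junb: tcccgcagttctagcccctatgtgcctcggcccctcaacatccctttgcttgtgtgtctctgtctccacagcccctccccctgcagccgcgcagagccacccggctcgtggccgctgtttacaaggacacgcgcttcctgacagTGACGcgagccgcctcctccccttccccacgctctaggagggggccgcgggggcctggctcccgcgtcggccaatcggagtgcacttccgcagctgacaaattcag
Atf3: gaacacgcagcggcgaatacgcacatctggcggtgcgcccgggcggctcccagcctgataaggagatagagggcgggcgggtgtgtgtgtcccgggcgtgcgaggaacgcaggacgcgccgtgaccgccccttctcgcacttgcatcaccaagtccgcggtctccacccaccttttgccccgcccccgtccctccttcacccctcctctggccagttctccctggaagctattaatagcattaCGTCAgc
Nr4a1: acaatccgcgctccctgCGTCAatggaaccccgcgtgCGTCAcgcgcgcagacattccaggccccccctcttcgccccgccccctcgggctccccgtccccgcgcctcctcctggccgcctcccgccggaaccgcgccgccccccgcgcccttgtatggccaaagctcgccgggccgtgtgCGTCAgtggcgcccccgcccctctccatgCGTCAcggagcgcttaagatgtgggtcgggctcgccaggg
These windows lie at chr12:85473640-85473889 (plus strand) for Fos, chr7:19310046-19310295 (minus) for Fosb, chr8:84978749-84978998 (minus) for Junb, chr1:191183334-191183583 (minus) for Atf3 and chr15:101266596-101266845 (plus) for Nr4a1. Nr4a1 held 4 matches and Fos 2, the one nearer the start beginning 66 bases before it. The windows of Fosl2, Jun and Jund held none. RefSeq and GENCODE starts differ for some of these genes: the Jund window, chr8:70697489-70697738, lies upstream of the GENCODE start of Jund at 70698949 and does not adjoin it, and those of Fosl2, Atf3 and Nr4a1 lie inside the GENCODE span. The whole element TGACGTCA, which contains that core and is held by 1.55% of all windows, the AP-1 site TGANTCA (6.75%), the Egr site GCGTGGGCG (0.536%) and the CArG box bound by SRF (1.47%) matched in 0 of the 8. TATAAA was found in Fos alone and in 12.4% of all windows. A match describes letters in this stretch only.

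Fos genes supply the partner that Jun needs to form the classical AP-1 dimer, and Fos and Fosb showed the widest differences of the 10 genes between isoproterenol and saline hearts in each genotype. Fos (ENSMUSG00000021250, chromosome 12 at 85473890 to 85477273, plus strand) stood at 0.431 and 1.13 CPM in WT isoproterenol, against 3.88 and 2.82 CPM in WT saline. In Set7KO it stood at 1.42 and 0.585 CPM after isoproterenol, against 12.2 and 1.34 CPM after saline. In WT the isoproterenol libraries lay below the saline libraries, while in Set7KO saline replicate 2 lay within the isoproterenol range. The log2 fold change of Fos was -2.12 ± 0.95 in WT and -2.73 ± 0.95 in Set7KO (SE; edgeR adjusted p = 0.165 and 0.478). Fosb (ENSMUSG00000003545, chromosome 7 at 19302696 to 19310051, minus strand) encodes a Fos protein known for long-lived splice products in brain. Fosb had 6 and 7 counts in WT isoproterenol, against 70 and 37 in WT saline, or 0.136 and 0.202 CPM against 2.61 and 1.23 CPM. This was the widest difference of the 10 genes in WT, 11.2-fold lower after isoproterenol (log2 fold change -3.49 ± 0.73, unadjusted p = 0.00118, edgeR adjusted p = 0.0941). In Set7KO, Fosb stood at 0.241 and 0.366 CPM after isoproterenol, against 1.14 and 0.339 CPM after saline, and the groups overlapped (log2 fold change -1.25 ± 0.70, edgeR adjusted p = 0.601).

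Fosl2 (ENSMUSG00000029135, chromosome 5 at 32135801 to 32157842, plus strand) encodes Fra-2, which lacks the strong activation domain of Fos. Its levels were 20.6 and 26.0 CPM in WT isoproterenol, against 41.1 and 32.5 CPM in WT saline, and 22.8 and 18.4 CPM in Set7KO isoproterenol, against 44.2 and 25.2 CPM in Set7KO saline. Fosl2 was the 1 member whose isoproterenol libraries lay below the saline libraries within both genotypes. The log2 fold change was -0.66 ± 0.31 in WT and -0.75 ± 0.31 in Set7KO (edgeR adjusted p = 0.177 and 0.513). Averaged over genotypes it was -0.71 ± 0.22, against -2.42 ± 0.67 for Fos and -2.37 ± 0.50 for Fosb (edgeR adjusted p = 0.346, 0.306 and 0.190).

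**Figure D1:**
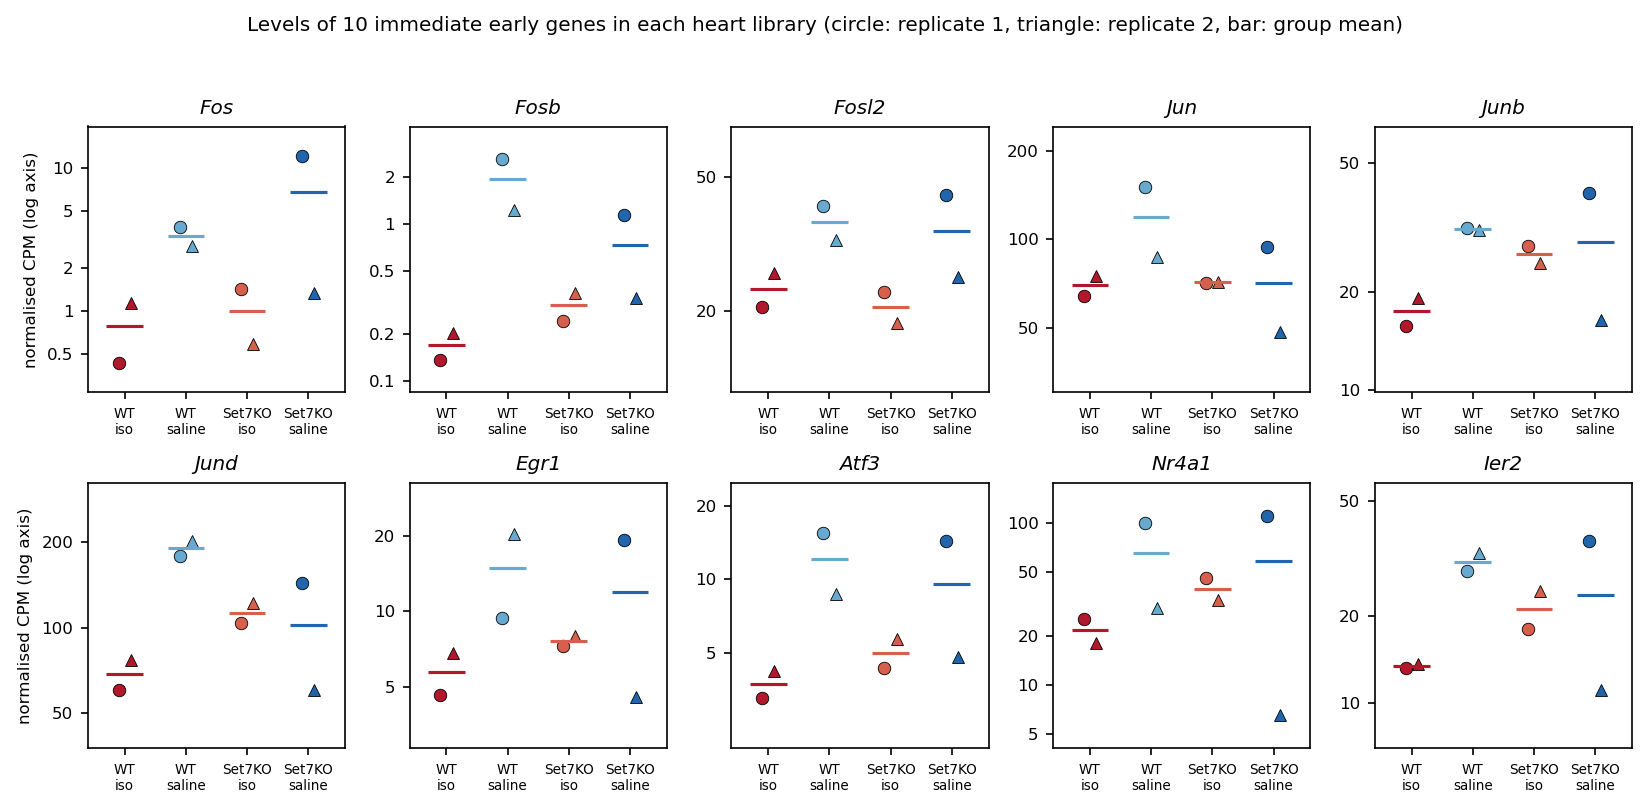
Level of each gene in each library, in TMM-normalised CPM on a log axis, with isoproterenol left of saline within each genotype, circles for replicate 1, triangles for replicate 2 and bars for group means. In WT the isoproterenol libraries of all 10 genes lie below the saline libraries, and in Set7KO saline the triangle (replicate 2) lies below the circle for every gene, by 16.8-fold for Nr4a1.

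The Jun genes encode the obligate partners of Fos, which can also pair with each other. Jun (ENSMUSG00000052684, chromosome 4 at 95049034 to 95052222, minus strand) stood at 64.2 and 74.9 CPM in WT isoproterenol, against 151 and 87.1 CPM in WT saline. In Set7KO it stood at 71.1 and 71.4 CPM after isoproterenol, between the 93.7 and 48.3 CPM of the saline libraries. Its log2 fold change was -0.77 ± 0.36 in WT and 0.01 ± 0.36 in Set7KO. Junb (ENSMUSG00000052837, chromosome 8 at 84974484 to 84978718, minus strand), often a weaker activator that tempers Jun, stood at 15.8 and 19.2 CPM in WT isoproterenol, against 31.5 and 31.1 CPM in WT saline. In Set7KO, Junb stood at 27.8 and 24.7 CPM after isoproterenol, against 40.5 and 16.5 CPM after saline. The log2 fold change of Junb was -0.84 ± 0.38 in WT and -0.11 ± 0.38 in Set7KO (edgeR adjusted p = 0.167 and 0.932), so in Set7KO it was smaller than its error.

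Jund (ENSMUSG00000071076, chromosome 8 at 70698949 to 70700616, plus strand), the Jun gene expressed most steadily in resting cells, stood at 60.3 and 76.9 CPM in WT isoproterenol, against 179 and 203 CPM in WT saline. In Set7KO the values were 104 and 122 CPM after isoproterenol, against 144 and 60.1 CPM after saline. For Jund the log2 fold change was -1.48 ± 0.38 in WT (unadjusted p = 0.00414, edgeR adjusted p = 0.0941) and 0.15 ± 0.37 in Set7KO. The difference between these 2 fold changes, the interaction, was 1.63 ± 0.53, the only one of the 10 with an unadjusted p under 0.05 (0.0143, edgeR adjusted p = 0.110), and it was 0.61 ± 0.42 with the GC and length offsets. In WT the Jund difference was -0.72 ± 0.30 with the offsets. Jund transcripts hold 67.1% GC, more than 99.8% of the genes tested. Jun, Junb, Jund and Atf3 overlap other annotated genes on the opposite strand, and the labels do not say if reads were counted by strand.

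Atf3 (ENSMUSG00000026628, chromosome 1 at 191170296 to 191218039, minus strand) is a stress-induced bZIP factor that often represses. It stood at 3.27 and 4.24 CPM in WT isoproterenol, against 15.5 and 8.72 CPM in WT saline. In Set7KO the values were 4.34 and 5.71 CPM after isoproterenol, against 14.4 and 4.80 CPM after saline. The 4 isoproterenol libraries thus spanned 3.27 to 5.71 CPM, and 3 of the 4 saline libraries lay above them. The log2 fold change was -1.69 ± 0.52 in WT, -0.93 ± 0.51 in Set7KO and -1.31 ± 0.36 averaged over genotypes (edgeR adjusted p = 0.100, 0.591 and 0.306). Of the 10 genes Atf3 had the GC content nearest to the median of the genes tested, 51.2% against 50.6%, and its WT difference with the offsets was -1.54 ± 0.50.

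Egr1 (ENSMUSG00000038418, chromosome 18 at 34859823 to 34864984, plus strand) stood at 4.63 and 6.84 CPM in WT isoproterenol, against 9.41 and 20.4 CPM in WT saline. In Set7KO it stood at 7.26 and 7.98 CPM after isoproterenol, against 19.3 and 4.53 CPM after saline. Isoproterenol libraries therefore spanned 4.63 to 7.98 CPM and saline libraries 4.53 to 20.4 CPM. For Egr1 the log2 fold change was -1.38 ± 0.63 in WT and -0.64 ± 0.62 in Set7KO (edgeR adjusted p = 0.171 and 0.760).

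Nr4a1 (ENSMUSG00000023034, chromosome 15 at 101254269 to 101274795, plus strand) varied more than the other members between the 2 libraries of each saline group. It stood at 25.5 and 18.1 CPM in WT isoproterenol, against 100 and 29.7 CPM in WT saline, and at 45.4 and 33.3 CPM in Set7KO isoproterenol, against 110 and 6.56 CPM in Set7KO saline. The 2 Set7KO saline libraries differed 16.8-fold and the 2 WT saline libraries 3.38-fold. For Nr4a1 the log2 fold change was -1.57 ± 1.03 in WT and -0.57 ± 1.01 in Set7KO (edgeR adjusted p = 0.300 and 0.869), each within 2 of its errors. Ier2 (ENSMUSG00000053560, chromosome 8 at 84661331 to 84662852, minus strand), whose protein acts in the nucleus of stimulated cells, was much tighter in WT, at 13.2 and 13.6 CPM after isoproterenol, against 28.6 and 33.2 CPM after saline. In Set7KO it stood at 18.0 and 24.4 CPM after isoproterenol, against 36.3 and 11.1 CPM after saline. Its log2 fold change was -1.21 ± 0.47 in WT and -0.16 ± 0.47 in Set7KO (edgeR adjusted p = 0.132 and 0.921).

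Set against all genes, in WT the 10 members had log2 fold changes of -3.49 to -0.66 with a median of -1.43, where the median of all genes tested was 0.06. None passed an adjusted p of 0.05 in edgeR, where 0% of all genes did, and the lowest adjusted p of a member was 0.0941. At an unadjusted p under 0.05, 4 members were lower (Fosb, Jund, Atf3 and Ier2), against 13.3% of genes. The WT isoproterenol libraries lay below the WT saline libraries for 10 of 10 members, against 33.4% of genes. In Set7KO, 8 of 10 members had a negative log2 fold change, with a median of -0.60 against -0.04 for all genes. There 0 members and 0% of genes passed the adjusted test, 2 members (Fos and Fosl2) were lower at an unadjusted p under 0.05, against 6.01% of genes, and 1 was lower without overlap, against 18.7%.

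Averaged over genotypes the 10 log2 fold changes ran from -2.42 to -0.38 with a median of -0.86, against 0.02 for all genes. In edgeR 0 members passed the adjusted test, against 0.0510% of genes, the lowest adjusted p being 0.190. At an unadjusted p under 0.05, 5 members were lower (Fos, Fosb, Fosl2, Jund and Atf3), against 4.90% of genes. With all 4 libraries on each side, 0 members were free of overlap, against 2.01% of genes lower in this way. For all 10 members, Set7KO saline replicate 2 lay within or below the isoproterenol range. Without it, a choice made after its values were seen, the 4 isoproterenol libraries lay below the 3 saline libraries for 9 of 10 members, against 6.36% of genes. The exception was Nr4a1, with 45.4 CPM in the highest isoproterenol library, against 29.7 CPM in the lowest of the 3 saline libraries.

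**Figure D2:**
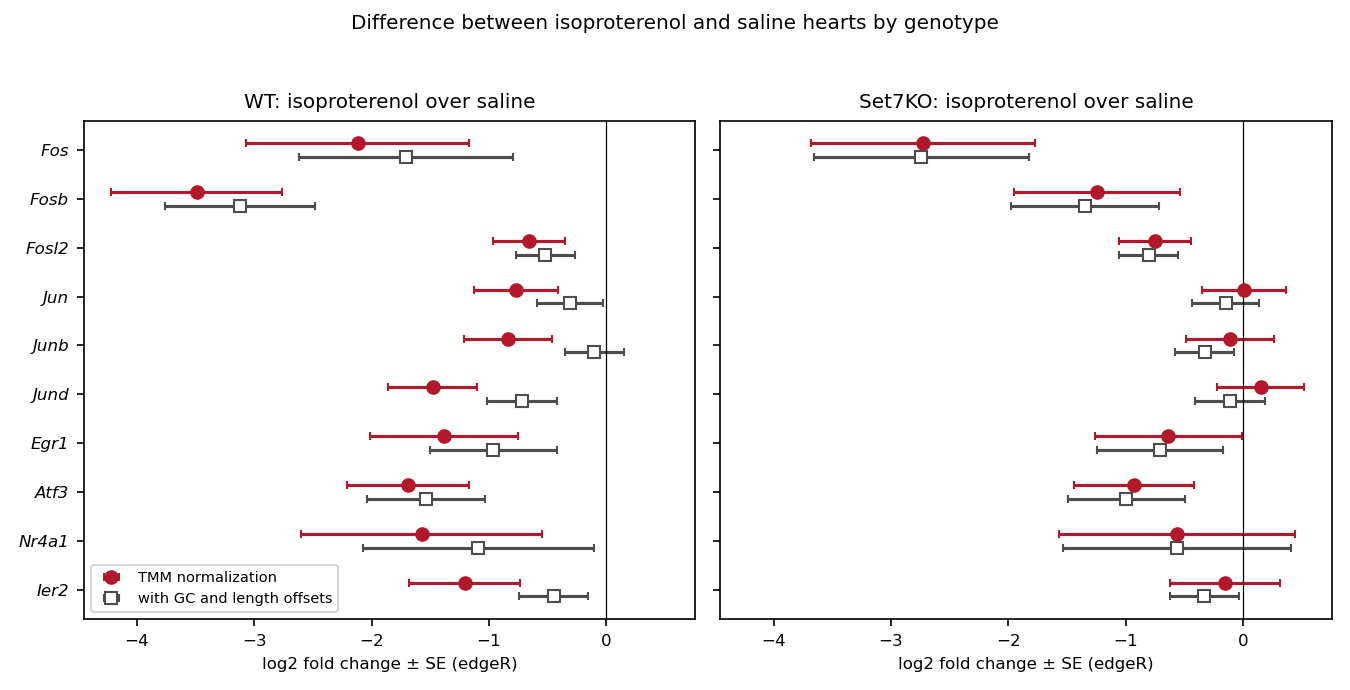
log2 fold change of isoproterenol over saline in WT (left) and Set7KO (right), with standard errors as bars, for TMM normalization (filled circles) and with offsets for GC content and length (open squares). In WT all 10 circles lie below 0, and the offsets move Junb from -0.84 to -0.10 and Jund from -1.48 to -0.72, whereas Atf3 moves from -1.69 to -1.54.

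The GC content of the members ran from 51.2% for Atf3, near the median of 50.6% over the genes tested, to 67.1% for Jund. All 10 lay above that median. Within WT the GC trend of the libraries and the treatment cannot be told apart. With the offsets, 10 of 10 members kept a negative log2 fold change in WT, with a median of -0.84 in place of -1.43. At an unadjusted p under 0.05, 3 were then lower in WT (Fosb, Jund and Atf3), against 8.28% of genes. The adjusted levels were free of overlap for 7 of 10 members in WT, against 26.7% of genes, Jun, Junb and Nr4a1 being the exceptions. The most GC-rich members moved most: the WT difference was -0.10 ± 0.25 for Junb (62.6% GC) and -0.45 ± 0.29 for Ier2 (60.9%). Fos (54.1% GC) stood at -1.71 ± 0.91, Fosb (56.2%) at -3.12 ± 0.64 and Fosl2 (53.6%) at -0.52 ± 0.25. Jun stood at -0.31 ± 0.28, Egr1 at -0.96 ± 0.54 and Nr4a1 at -1.09 ± 0.98.

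In Set7KO the offsets left the median at -0.64, and 10 of 10 members then had a negative log2 fold change. The adjusted levels were free of overlap for 3 members (Fos, Fosb and Fosl2), against 18.8% of genes. Averaged over genotypes the median was -0.74, and Fos, Fosb, Fosl2 and Atf3 were lower at an unadjusted p under 0.05, against 5.73% of genes. The same 3 Fos genes were free of overlap over 4 isoproterenol and 4 saline libraries, against 2.87% of genes. Without Set7KO saline replicate 2, again a choice made after its values were seen, adjusted levels were free of overlap for 7 of 10 members, against 6.03% of genes. Before the adjustment that library lay within or below the isoproterenol range for all 10 members, so leaving it out favours them in this count. No member passed the adjusted test in edgeR with the offsets, the lowest adjusted p being 0.148 for Fosb averaged over genotypes. In the average over genotypes, Fos, Fosb, Fosl2 and Atf3 thus differed by nearly as much with the adjustment as without it. In WT alone the differences of all 10 members became smaller. Beside Junb, Jun, Jund and Ier2, this held for Fos (-2.12 to -1.71), Egr1 (-1.38 to -0.96) and Nr4a1 (-1.57 to -1.09), and less so for Fosb, Fosl2 and Atf3.

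**Figure D3:**
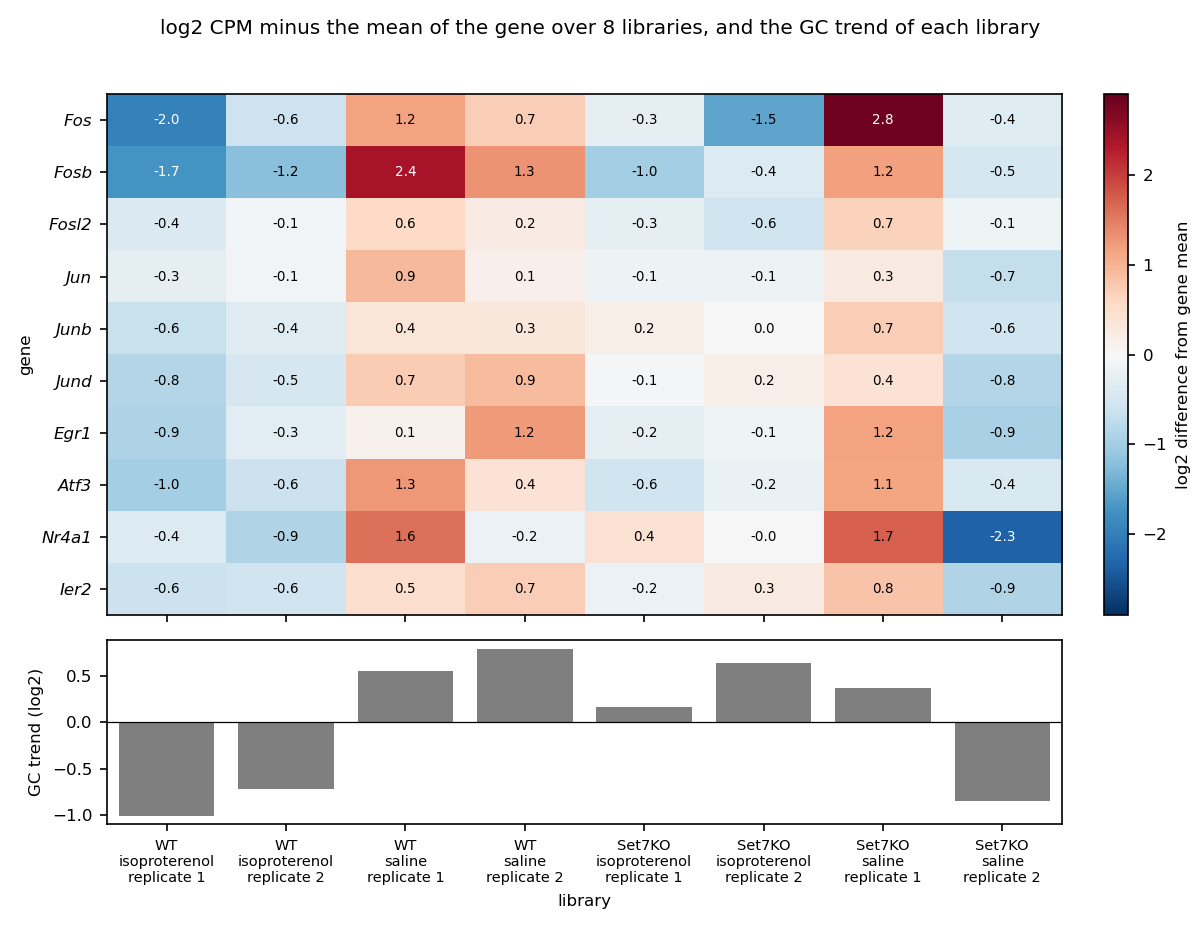
log2 CPM of each gene minus its mean over the 8 libraries (colour and printed value, red for higher), above the GC trend of each library (bars, log2). The columns of WT isoproterenol and Set7KO saline replicate 2 hold negative values for all 10 genes and have a negative GC trend, while Set7KO isoproterenol has a positive trend and mostly negative values.

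The 10 genes varied together over the libraries. Across the 8 libraries, the 45 pairs of members had Pearson correlations of log2 CPM from 0.576 (Jun with Egr1) to 0.963 (Fosb with Atf3), with a median of 0.788. These are descriptions of 8 libraries that share depth, GC trend and treatment. Pairs of other genes were not computed, so such correlations are not shown to be particular to these 10 genes. The correlation with the GC trend itself ran from 0.397 for Fosl2 and 0.50 for Fos to 0.909 for Ier2 and 0.946 for Jund. The mean of the standardised log2 levels of the 10 genes was -1.01 and -0.57 in WT isoproterenol and 1.10 and 0.72 in WT saline. In Set7KO it was -0.24 and -0.26 after isoproterenol, and 1.21 (replicate 1) and -0.95 (replicate 2) after saline. The Set7KO isoproterenol libraries lay below 3 of the 4 saline libraries in this mean. Their GC trend was 0.17 and 0.64, against 0.37 to 0.79 in those 3 saline libraries. The part of the GC trend in this order was not tested.

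Among 10898 other genes with a mean of at least 2 CPM, the 5 whose log2 levels followed this mean most closely over the 8 libraries were Dusp1 (Pearson r = 0.968), Adprhl1 (0.967), Camk2b (0.965), Trmt44 (0.964) and Pcyox1l (0.964). Dusp1, itself an immediate early gene that encodes a MAP kinase phosphatase, stood at 24.2 and 36.1 CPM in WT isoproterenol, against 87.1 and 86.8 CPM in WT saline. In Set7KO, Dusp1 stood at 39.9 and 46.9 CPM after isoproterenol, against 102 and 37.0 CPM after saline. Set7KO saline replicate 2 again lay within the isoproterenol range. Adprhl1, a gene of heart muscle, stood at 452 to 631 CPM in the 4 isoproterenol libraries and at 523 to 935 CPM in the 4 saline libraries.

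Set7KO saline replicate 2 also stood apart in blood cell genes. Its title carries the code letter C, as do those of both WT saline libraries, while its Setd7 level of 5.70 CPM lay beside the other Set7KO libraries. The 7 neutrophil markers summed to 116 CPM there, against 4.10 to 16.8 CPM in the other 7 libraries, where S100a8 was at 0 in 3. The 5 erythroid markers summed to 10520 CPM, against 1254 to 4348 CPM elsewhere, and the 7 fibroblast markers to 1690 CPM, against 2845 to 5609 CPM. Gsn alone made up 1241 CPM of that fibroblast sum, against 2028 to 4924 CPM elsewhere. Col1a1, Col1a2 and Tcf21 were also lowest there, whereas Dcn, Lum and Pdgfra lay within the range of the other libraries. The 7 macrophage markers, all detected in every library, summed to 152 to 167 CPM in WT isoproterenol and 305 to 387 CPM in WT saline. Within WT, Csf1r, C1qa, C1qb and Cd68 were lower in both isoproterenol libraries, while Adgre1 and Fcgr1 overlapped. Mrc1 went the other way, at 12.0 and 9.55 CPM after isoproterenol, against 4.03 and 6.66 CPM after saline. In Set7KO the 7 macrophage markers summed to 213 to 346 CPM after isoproterenol and 237 to 331 CPM after saline. The 8 cardiomyocyte markers, none at 0, summed to 85860 to 107200 CPM in all but WT saline replicate 2, at 122400 CPM. Lymphocyte markers, 7 of 8 of them tested and Ms4a1 at 0 in 6 libraries, summed to 2.34 to 4.56 CPM in WT isoproterenol and 10.3 to 12.9 CPM in WT saline. At an unadjusted p under 0.05, 6 of these 7 were lower in WT, against 13.3% of genes. With the offsets 7 of 7 were lower, against 8.28% of genes. In Set7KO the lymphocyte markers summed to 7.90 to 8.91 CPM after isoproterenol and 10.5 to 14.1 CPM after saline. The erythroid markers summed to 1254 to 1519 CPM in WT isoproterenol and 3767 to 4260 CPM in WT saline. Mitochondrial genes took 5.75% and 4.41% of the counts in WT isoproterenol and 1.85% and 2.12% in WT saline, with 3.02% to 3.81% in the 4 Set7KO libraries. The part of these cells and of the mitochondrial share in the levels of the 10 genes was not tested.

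Leaving out a Set7KO saline library also changed the outcome of the adjusted tests. Without Set7KO saline replicate 2, edgeR called 7 members lower in WT isoproterenol than in WT saline (Fos, Fosb, Junb, Jund, Egr1, Atf3 and Ier2), against 9.11% of genes called lower. Without Set7KO saline replicate 1 it called the same 7 members, against 7.89% of genes. The WT libraries were the same in these fits, and the median log2 fold change of the 10 genes in WT was -1.445 without replicate 2 and -1.435 without replicate 1, against -1.431 with all libraries. Why the calls changed was not tested. With the GC and length offsets as well, 0 members were called in WT in either fit. Averaged over genotypes and without replicate 2, Fos fell (log2 fold change -2.86, edgeR adjusted p = 0.0467), against 0.165% of genes called lower, and with the offsets as well 0 members were called, the lowest adjusted p being 0.0939. DESeq2 on all 8 libraries called 4 members lower in WT (Fos, Jund, Atf3 and Ier2; Fosb received no adjusted p), against 7.20% of genes, and 3 averaged over genotypes (Fos, Fosb and Atf3), against 0.930% of genes. With the offsets DESeq2 called none of these 4 in WT and called Fosb instead, and averaged over genotypes it called Fos, Fosb, Fosl2 and Atf3. The share of all genes called lower by DESeq2 with the offsets was not counted, so these calls are not read as a result about the members. In Set7KO and between genotypes within a treatment, DESeq2 called 0 members.

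Comparing Set7KO with WT asks whether loss of Set7 alters the level of these genes. It uses the same libraries as the comparisons above, so its values are not independent of theirs. After saline, 9 of 10 members were lower in Set7KO, with a median log2 fold change of -0.34 against 0.02 for all genes. No member passed the adjusted test, against 0.00567% of genes. Jund was lower at an unadjusted p under 0.05 (-0.91 ± 0.37, edgeR adjusted p = 0.483), against 2.46% of genes. Fosb (-1.41 ± 0.63) and Jund were lower without overlap, against 18.3% of genes. With the offsets the median was -0.13, and 0 members were free of overlap, a count for which the share of all genes was not taken. Fos, the 1 member that was not lower, averaged 6.75 ± 7.65 CPM in Set7KO saline and 3.35 ± 0.753 CPM in WT saline (SD, n = 2 each).

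After isoproterenol, 9 of 10 members were higher in Set7KO than in WT, with a median log2 fold change of 0.50 against -0.05 for all genes. No member passed the adjusted test, where 0.00567% of genes did, and 0 passed an unadjusted p of 0.05, against 7.22% of genes higher. Levels were higher without overlap for 7 of 10 members, among them Jund (0.72 ± 0.37) and Junb (0.58 ± 0.38), against 31.8% of genes. With the offsets the median was 0.09, and Jund stood at 0.14 ± 0.30 and Junb at 0.02 ± 0.25. In the adjusted levels 1 member, Fosb, was higher without overlap and 1, Jun, was lower. The share of all genes free of overlap with the offsets was not counted here, so these counts are not read as results about the members. Averaged over treatments the median was 0.04, the lowest adjusted p of a member was 1.00, and 0.00567% of all genes passed.

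The interaction asks whether isoproterenol and saline differed by another amount in Set7KO than in WT. The comparisons within WT and within Set7KO have no library in common, so this difference can be tested. It was above 0 for 8 of 10 members, with a median of 0.77 against -0.05 for all genes, and Fos (-0.61 ± 1.31) and Fosl2 (-0.09 ± 0.43) were the exceptions. In edgeR 0 members passed, as did 0% of genes, and 1, Jund, was higher at an unadjusted p under 0.05, against 12.0% of genes. DESeq2 called Jund alone, against 4.66% of genes called higher, and with the offsets it called 0 members (lowest adjusted p 0.598). In edgeR with the offsets the median was 0.21 and the lowest adjusted p 0.456. The 2 Set7KO saline libraries gave different answers: without replicate 1, edgeR called 8 members higher (all but Fos and Fosl2), against 13.7% of genes, and without replicate 2 it called 0. Without replicate 1 it also called 3 members lower in Set7KO than in WT after saline (Jund, Nr4a1 and Ier2), against 1.74% of genes. With the offsets and without replicate 1, edgeR called 0 members in either comparison, the lowest adjusted p for the interaction being 0.131.

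**Figure D4:**
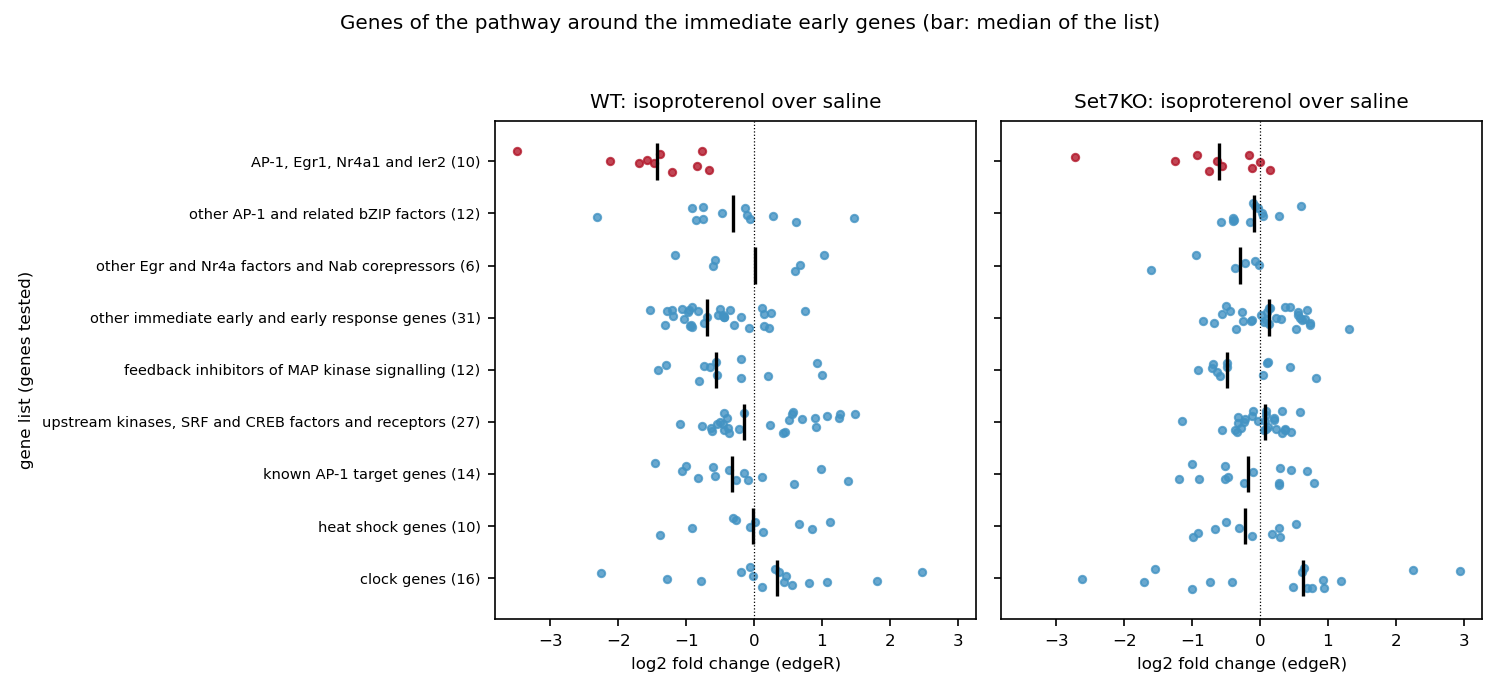
log2 fold change of isoproterenol over saline in WT (left) and Set7KO (right) for the 10 genes (red) and for genes of the surrounding pathway (blue), each point a gene and each bar the median of its list. The median of the 10 genes is -1.43 in WT and -0.60 in Set7KO, and that of the 31 other early response genes is -0.69 in WT and 0.13 in Set7KO.

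Other genes of the pathway were counted in lists. In none of the lists did a gene pass the adjusted test in the isoproterenol comparisons in edgeR. Of 31 other immediate early and early response genes, 9 were lower and 1 higher in WT at an unadjusted p under 0.05, where 13.3% of all genes were lower and 18.5% higher, and the list's median was -0.69 (log2). The GC and length offsets brought this WT median to -0.31, and 6 were lower and 3 higher, against 8.28% and 6.32% of genes. In Set7KO, 1 was lower and 2 were higher, against 6.01% and 3.65% of genes, with a median of 0.13. Sgk1, a kinase induced by hormones and stress, stood at 24.1 to 45.3 CPM in the 4 isoproterenol libraries, below the 59.4 to 73.3 CPM of the 4 saline libraries. Zfp36, whose protein degrades unstable messages, stood at 16.0 to 26.2 CPM in the isoproterenol libraries, against 28.1 to 40.5 CPM in the saline libraries. Both kept Set7KO saline replicate 2 above the isoproterenol range in CPM, where 2.01% of all genes were lower without overlap. With the GC and length adjustment the levels of Zfp36 remained free of overlap, against 2.87% of genes, while those of Sgk1 overlapped.

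Among 12 feedback inhibitors of MAP kinase signalling, 5 were lower and 1 higher averaged over genotypes at an unadjusted p under 0.05, with a median of -0.29, where 4.90% of all genes were lower and 4.50% higher. Dusp6, an ERK phosphatase, stood at 8.55 to 10.9 CPM after isoproterenol, against 13.8 to 18.1 CPM after saline, without overlap (log2 fold change -0.73 ± 0.18, edgeR adjusted p = 0.244). Spry4, an inhibitor of receptor signalling to ERK, stood at 10.7 to 13.2 CPM after isoproterenol, against 15.6 to 23.7 CPM after saline (-0.67 ± 0.19, edgeR adjusted p = 0.321). Both were free of overlap, where 2.01% of all genes were lower in this way, and both had been named for a small p in this same comparison. Their differences changed little with the GC and length offsets, to -0.81 ± 0.18 for Dusp6 and -0.67 ± 0.16 for Spry4. Dusp8, named by the same rule, overlapped, at 26.6 to 35.6 CPM after isoproterenol, against 27.6 to 80.9 CPM after saline. Its log2 fold change was -0.97 ± 0.26 (edgeR adjusted p = 0.292), and its levels overlapped with the adjustment as well.

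The 12 other bZIP factors tested had a median of -0.31 in WT, which turned to 0.05 with the offsets, and of -0.09 in Set7KO, or -0.19 with the offsets. The 6 other Egr, Nr4a and Nab genes had medians of 0.02 in WT and -0.30 in Set7KO, or 0.21 and -0.38 with the offsets. Nr4a3, the relative of Nr4a1, did not follow it: Nr4a3 had its highest level, 16.4 CPM, in Set7KO saline replicate 2, where Nr4a1 had its lowest. In the other 7 libraries Nr4a3 stood at 1.59 to 4.81 CPM. The 27 upstream kinases, receptors and SRF and CREB factors had a median of 0.00 averaged over genotypes. At an unadjusted p under 0.05, 1 was lower and 1 higher, where 4.90% of all genes were lower and 4.50% higher. Srf, which binds the CArG box, stood at 74.5 and 72.4 CPM in WT isoproterenol, against 133 and 179 CPM in WT saline, and its WT difference was -1.09 ± 0.24, or -0.39 ± 0.23 with the offsets.

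Known targets of AP-1 showed no common direction. The 14 tested had a median of -0.15 averaged over genotypes, with 1 lower and 1 higher at an unadjusted p under 0.05. Of all genes, 4.90% were lower and 4.50% higher in this way. Hbegf, a growth factor of the EGF family, was the higher one, at 19.2 to 32.3 CPM in the isoproterenol libraries, against 14.0 to 17.4 CPM in the saline libraries (0.64 ± 0.20, edgeR adjusted p = 0.366). The 10 heat shock genes, often induced beside immediate early genes under stress, had a median of -0.05 averaged over genotypes (-0.18 with the offsets), with 2 lower and 0 higher, where 4.90% of all genes were lower and 4.50% higher. Dnajb1, a cofactor of Hsp70, was lower without overlap (-0.79 ± 0.23, edgeR adjusted p = 0.327), as were 2.01% of all genes. Hspb1, named by the same rule, overlapped, at 114 to 197 CPM after isoproterenol, against 157 to 366 CPM after saline (-0.94 ± 0.27, edgeR adjusted p = 0.316). With the GC and length adjustment its levels were free of overlap, against 2.87% of genes. The 16 clock genes tested had a median of 0.58, with 3 lower and 4 higher at an unadjusted p under 0.05, against the same 4.90% and 4.50% of genes. Arntl, which encodes the clock activator Bmal1, stood at 1.13 to 2.54 CPM in the isoproterenol libraries, against 0.896 CPM in WT saline replicate 1 and 6.38 to 18.0 CPM in the other 3 saline libraries.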

How the data were processed

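The authors deposited raw counts, whole numbers for each gene and library. Per the submitters' processing notes, the build was GRCm38 and the tools included StringTie, edgeR, HISAT and HISAT2, with no roles or versions. Libraries were made with a stranded mRNA kit and sequenced as single reads, per the labels' protocols. Symbols, coordinates, exonic lengths and GC content were taken from GENCODE for GRCm38.

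Counts were fitted with edgeR 4.0.16 in R 4.3.3: 1 mean per group over all 8 libraries, TMM normalization, filterByExpr (17636 genes kept) and quasi-likelihood F-tests, two-sided, adjusted by Benjamini-Hochberg over all genes tested within each of 7 contrasts (threshold 0.05). There were 4 residual degrees of freedom. Alternatives were other scalings and filters, limma-voom (limma 3.58.1), DESeq2 1.42.0, an additive model, the compared groups alone, each library left out, and offsets that remove, in each library, a smooth trend (natural splines with 5 degrees of freedom) over exonic length and over GC content, known for 17604 genes. The procedure was tested on simulated data. Library totals of 27847069 to 51705705 counts put the floor of 3 counts at 0.0598 to 0.112 CPM, for counting error only. Replicate numbers follow accession order and pair no libraries.

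The members, lists and tests were chosen with earlier results of these data known. Named from each other list were at most 3 genes with the smallest p for isoproterenol averaged over genotypes, and the 5 genes most alike to the members.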

Additional observations from a re-analysis of the deposited data

Results flagged for a closer look

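In groups of 4 libraries, 40 combinations of gene and treatment or genotype were searched for a single library far from the other 3, and chance alone marks about 1 in 20. In 4 of them the highest library stood apart. Among the 4 Set7KO libraries it was Set7KO saline replicate 1 for Fos at 12.2 CPM, where the gap to the next library was 0.928 of the whole range, for Fosb at 1.14 CPM (0.861) and for Atf3 at 14.4 CPM (0.864). Among the 4 WT libraries it was WT saline replicate 1 for Nr4a1 at 100 CPM (0.859).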

How the results depend on the processing

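In WT the direction of isoproterenol against saline held for all 10 members in every alternative run. Of 200 member values there, 28 moved past the threshold and 0 reversed. Runs that left out a Set7KO library kept every WT library, so they could hardly test this direction. In Set7KO 24 of 200 reversed, in the interaction 18 of 190, averaged over genotypes 2 of 200, and 0 for the 4 member values named between genotypes. No paired analysis was possible because the labels give no replicate numbers shared between groups.

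Genes called in WT (0 in the fit reported) numbered 3 with DESeq2 size factors, 3 with a 1 CPM filter, 1512 with no filter, 2719 in DESeq2, 468 in DESeq2 with offsets, 3 with offsets (3 also without either Set7KO saline library) and 5043 with the 2 WT groups alone. Members called there numbered 3 with no filter, 4 in DESeq2, 1 (none of those 4) in DESeq2 with offsets and 6 with the WT groups alone. In Set7KO (0 genes) the counts were 31 with no filter, 101 in DESeq2, 132 in DESeq2 with offsets and 1 with offsets (1 without either Set7KO saline library). Between genotypes after saline (1) they were 19, 21 and 12 with no filter, DESeq2 and DESeq2 with offsets, 0 with offsets and without Set7KO saline replicate 1, and 0 with the 2 groups alone. After isoproterenol (1) they were 3, 297 and 41, and 1303 with the 2 groups alone. For the interaction (0) they were 1686, 2321 and 191, and 1 with offsets and without Set7KO saline replicate 2; 1 member was called with no filter and 1 in DESeq2. For isoproterenol averaged over genotypes (9) they were 159, 251 and 380, 14 in limma-voom and 1 in the additive model; members called were 2, 3 and 4. Averaged over treatments (1) they were 2, 2 and 2, and 2 with offsets and without Set7KO saline replicate 2.

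With each library left out in turn, genes called ranged from 0 to 3765 in WT, 0 to 486 in Set7KO, 0 to 1030 between genotypes after saline, 0 to 2 after isoproterenol, 0 to 5778 for the interaction, 0 to 42 for isoproterenol averaged over genotypes and 1 to 2 for genotype averaged over treatments. Members called ranged from 0 to 7 in WT, 0 to 3 between genotypes after saline, 0 to 8 for the interaction and 0 to 1 for isoproterenol averaged. The wide ends came from leaving out a Set7KO saline library. A group left with 1 library is assumed to vary like the others, and the genes tested differ.

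In Set7KO the sign of isoproterenol against saline reversed for Jun with upper quartile scaling (-0.038), a 1 CPM filter (-0.0083), the 2 groups alone (-0.00058), offsets (-0.15) and offsets in DESeq2 (-0.15), and for Jund with offsets (-0.11, also in DESeq2). In limma-voom Junb (0.062), Nr4a1 (0.65) and Ier2 (0.11) reversed there, and Fos in the interaction (0.31). The interaction of Junb was -0.22 with offsets, in edgeR and DESeq2. With offsets and without Set7KO saline replicate 1, Junb (0.050), Egr1 (0.33), Nr4a1 (2.13) and Ier2 (0.24) reversed in Set7KO, Fos (0.97) and Fosl2 (0.099) in the interaction, and Nr4a1 averaged over genotypes (0.52). With offsets and without Set7KO saline replicate 2, Jun (-0.38) and Jund (-0.50) reversed in Set7KO, and Jun (-0.073), Junb (-0.52), Egr1 (-0.35), Atf3 (-0.031), Nr4a1 (-0.36) and Ier2 (-0.30) in the interaction.

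Leaving out 1 library without offsets reversed 7 members in Set7KO. Their lowest value came without saline replicate 2 and their highest without saline replicate 1: -0.39 to 0.56 for Jun, -0.62 to 0.67 for Junb, -0.35 to 0.91 for Jund, -1.34 to 0.75 for Egr1, -1.52 to 0.062 for Atf3, -1.48 to 2.58 for Nr4a1 and -0.77 to 0.93 for Ier2, which was also 0.043 without isoproterenol replicate 1. In the interaction the ranges were -1.43 to 1.72 for Fos (also 0.22 without WT isoproterenol replicate 2), -0.42 to 0.37 for Fosl2 (above 0 without any 1 of 4 libraries: 0.37, 0.063, 0.093 and 0.10) and -0.11 (without WT saline replicate 1) to 4.16 for Nr4a1. Averaged over genotypes Nr4a1 ranged from -1.54 to 0.50. The causes were not tested.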
